A study of Homo sapiens with 4 samples.

Results

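The 46 DNA replication genes described here encode the proteins that license origins, unwind DNA, synthesize both strands and join the fragments. They were chosen by name from a genome-wide knockout screen in A549, a human lung adenocarcinoma cell line, and are 46 of the 19111 genes with counts in the screen. Both cultures started from cells infected with the Brunello library, whose single guide RNAs (sgRNAs) each direct the nuclease Cas9 to 1 gene, and selected with puromycin. They were then kept for 3 weeks in 4 µM HQ461, a molecular glue that brings the kinase CDK12 to the DDB1-CUL4-RBX1 ubiquitin ligase so that Cyclin K is degraded, or in the vehicle DMSO at 0.1% (v/v). The labels name 2 biological replicates of each treatment, whereas the deposited table has 1 column of read counts per treatment. The comparison therefore has no replicate check, no p-value is given, and folds describe these 2 columns. The abundance of each sgRNA before treatment was not analysed here.

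DNA is copied once per cell cycle. In G1 the origin recognition complex (ORC1 to ORC6), CDC6 and CDT1 load the MCM helicase (MCM2 to MCM7) onto DNA, a step called licensing. In S phase the kinase CDC7-DBF4 and the loading of CDC45 and the GINS complex turn the helicase on. Polymerase alpha-primase then lays down primers, polymerases epsilon and delta extend them on the sliding clamp PCNA, and FEN1 and LIG1 process and seal the lagging strand. Most of these proteins are needed for every division, so cells that carry an effective sgRNA against such a gene become scarce as a culture grows.

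The HQ461 column held 16127620 counts and the DMSO column 14428845, over 77441 sgRNAs. Counts were divided by median-ratio size factors (0.833 for HQ461 and 1.20 for DMSO), so that an sgRNA with equal normalized counts has 0.694 times as many raw counts with HQ461 as with DMSO. An sgRNA's log2 fold change is log2 of the normalized count with HQ461 over that with DMSO, with 1 added to each, and a gene's value is the median over its sgRNAs. On this scale 0 is close to the median gene (-0.02). A gene or sgRNA at -1 or less, or at 1 or more, is called past the 2-fold mark. The spread of 997 non-targeting controls, which match no gene, was an SD of 0.87 on the log2 scale, against 1.33 for targeting sgRNAs. The controls were better counted, with a median of 437 normalized counts with DMSO. That median was 127 for targeting sgRNAs and 32.9 for sgRNAs of the replication genes. The SD of the controls is therefore not a measure of noise at the level of the replication sgRNAs. Values for single sgRNAs are raw counts unless called normalized. Intervals are 95% exact intervals that cover counting error only, since the counts are of PCR reads. A primer of the first PCR carried random bases, but the methods describe no use of them to collapse reads.

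Replication sgRNAs were scarce in both columns. Their median normalized count was 24.6 with HQ461 and 32.9 with DMSO, whereas the median over all targeting sgRNAs was 132 with HQ461 and 127 with DMSO. The median targeting sgRNA thus lay 5.37 times above the median replication sgRNA with HQ461 and 3.85 times above it with DMSO. Of the 184 replication sgRNAs, 20 (10.9%) were at 0 with HQ461 and 10 (5.43%) with DMSO, against 1.36% and 0.705% of targeting sgRNAs with HQ461 and DMSO. Among these, 8 were at 0 in both columns, 12 with HQ461 alone and 2 with DMSO alone. The sgRNAs at 0 in both columns target CDC7 (2 sgRNAs), MCM7, POLD2, RFC1, RFC3, RPA3 and FEN1, which leaves 176 with a fold change.

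**Figure D1:**
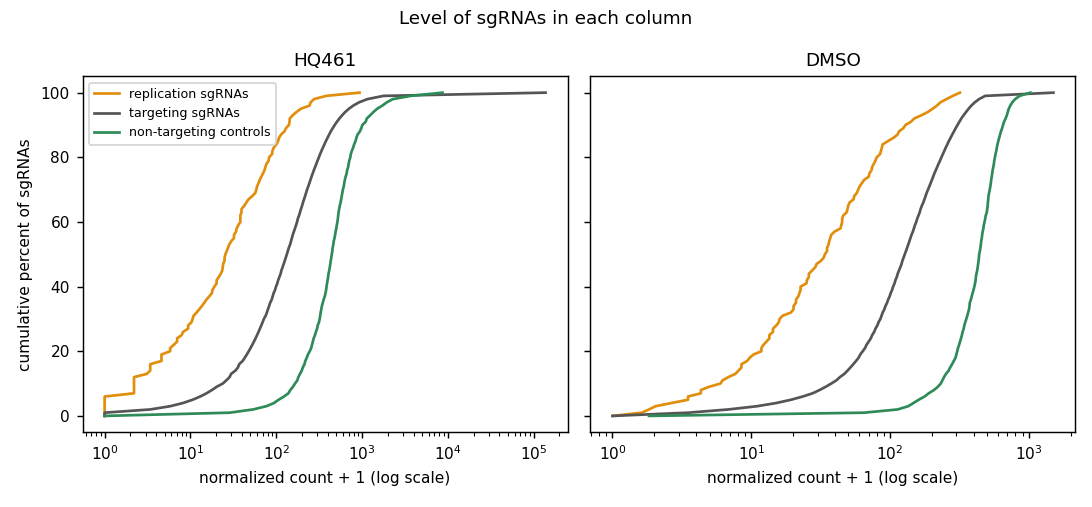
Cumulative percent of sgRNAs (vertical axis) at or below a normalized count plus 1 (horizontal axis, log scale) in the HQ461 column (left) and the DMSO column (right), for replication sgRNAs, all targeting sgRNAs and non-targeting controls. Replication sgRNAs lie left of targeting sgRNAs in both columns, with medians of 24.6 against 132 with HQ461 and 32.9 against 127 with DMSO.

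Together the 184 replication sgRNAs held 8239 counts with HQ461, or 0.0511% of the column (0.0500% to 0.0522%), and 11328 counts with DMSO, or 0.0785% (0.0771% to 0.0800%). They make up 0.238% of the sgRNAs of the library. In normalized counts the ratio of these sums was 1.05 (1.02 to 1.08), HQ461 over DMSO. A ratio of 1 is not the level of all genes, whose median log2 ratio of summed normalized counts was 0.22. All targeting sgRNAs together held 15633690 counts with HQ461 and 13902747 with DMSO. The ratios of summed counts given below have the same baseline. Of the 8239 counts with HQ461, 779 belonged to a single RFC4 sgRNA and 469 to a single ORC4 sgRNA, the highest of the replication sgRNAs. The median over a gene's sgRNAs is less moved by such sgRNAs, and most values below are medians.

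The gene values of the 46 genes had a median of -0.51, where all genes had -0.02, and they ran from -2.09 for RFC5 to 2.08 for RFC4. Past the 2-fold mark, 13 genes (28.3%) were lower with HQ461, against a background of 7.69% of all genes. Only RFC4 was past the mark in the other direction, against a background of 9.01%. Values under 0 were seen for 33 of the 46 (71.7%), against 51.3% of all genes. The other 13 lay above 0, and of these only RFC4 and POLD1 stayed above 0 when the columns were scaled by total counts, a scaling that moved the median of all genes by -0.68. The 13 genes were MCM3, ORC4, ORC5, CDT1, GINS3, POLA1, POLA2, PRIM2, POLD2, RFC1, RFC5, RPA2 and TIMELESS, so that 9 of the 10 roles described below, all but lagging-strand maturation, held at least 1.

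**Figure D2:**
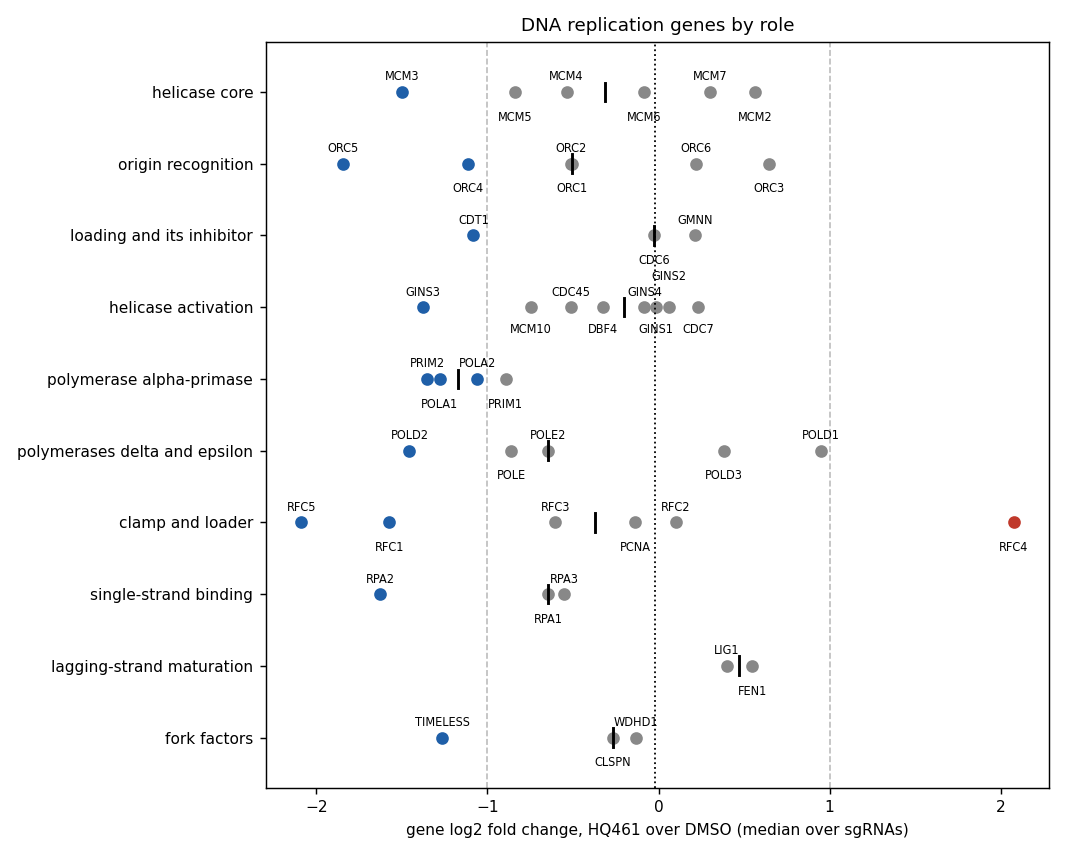
Gene log2 fold change, HQ461 over DMSO (horizontal axis), of the 46 replication genes by role (rows). Each point is 1 gene; blue points are at -1 or less, the red point is at 1 or more, short black bars are role medians, the dotted line is the median of all genes and dashed lines mark -1 and 1. All 4 polymerase alpha-primase genes lie between -1.35 and -0.89, whereas the clamp and loader row runs from -2.09 to 2.08.

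How far these counts stand above the background depended on the level with DMSO. Genes of few counts passed the 2-fold mark more often: 23.2% of the 1006 genes with a median under 30 normalized counts with DMSO were at -1 or less, against 13.6% of the 2820 genes between 30 and 80 and 5.58% of the 15285 genes at 80 and above. Of the replication genes, 19 lay under 30, 21 between 30 and 80 and 6 at 80 and above. Under 30, 5 of 19 (26.3%) were at -1 or less and the median was -0.14, close to the -0.17 of all genes at that level. Between 30 and 80, 7 of 21 (33.3%) were at -1 or less, with a median of -0.64 against -0.06 for all genes at that level. At 80 and above 1 of 6 (16.7%) was at -1 or less, namely CDT1. At 1 or more, the counts were 0 of 19 under 30 (background 171 of 1006), 1 of 21 between 30 and 80 (background 12.7%) and 0 of 6 at 80 and above (background 7.81%). These bounds were set after the values had been seen, and no test of the difference is possible with 1 column per treatment. The level with DMSO that sets the bands is also the denominator of the gene value, so counting error in it moves both. The median gene level with DMSO was 130 normalized counts over all genes and 34.8 over the replication genes. The 30 to 80 band lies below the first of these and holds the second, so its background is not like for like.

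**Figure D3:**
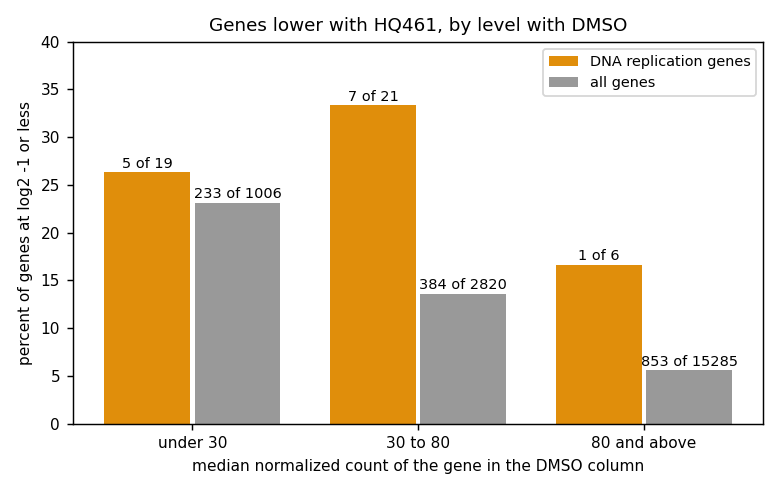
Percent of genes at a log2 fold change of -1 or less (vertical axis) among replication genes and all genes, by the gene's median normalized count in the DMSO column (horizontal axis); labels give the number of genes. Replication genes are near all genes under 30 (26.3% against 23.2%) and above them between 30 and 80 (33.3% against 13.6%). The DMSO level that sets the bands is also the denominator of the fold, so the bars are not a like-for-like comparison.

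At the level of single sgRNAs, 57 of 176 (32.4%) were at -1 or less, against a background of 17.9% of targeting sgRNAs. In the other direction 22 (12.5%) were at 1 or more, against 19.5%. The sgRNAs of a gene often disagreed. Of the 39 replication genes with all 4 sgRNAs counted, 9 (23.1%) had sgRNAs past the mark in both directions, where 21.7% of all such genes did. The gap between the highest and the lowest sgRNA of a gene had a median of 2.72 on the log2 scale, against 2.14 for all genes with 4 sgRNAs. By level the gap was alike: 3.54 for replication genes under 30 normalized counts with DMSO against 3.45 for all such genes, and 2.65 against 2.63 between 30 and 80. All 4 sgRNAs lay under 0 for MCM5, ORC1, PRIM2, POLE2 and RFC5, or 12.8% of the 39, against 9.00% of all genes with 4 sgRNAs. All 4 lay above 0 for POLD1 alone, or 2.56%, against 10.3%.

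**Figure D4:**
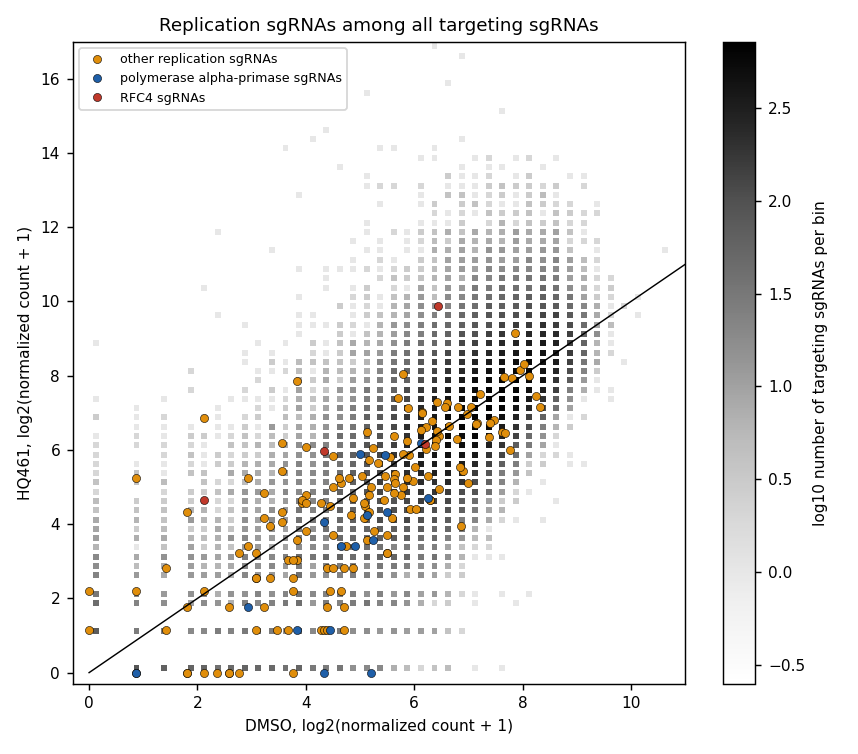
Normalized counts of sgRNAs with HQ461 (vertical axis) and DMSO (horizontal axis), both as log2 of the count plus 1. Grey squares are bins of all targeting sgRNAs, darker with more sgRNAs, points are the 176 replication sgRNAs and the line marks equal normalized counts. Most replication sgRNAs lie at the lower left, 108 of 176 of them under the line, and 1 RFC4 sgRNA lies far above it.

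Polymerase alpha-primase, which starts new strands at the fork, had the lowest median gene value of the 10 roles, -1.17. As a median over sgRNAs it was at -1.21, and the single-strand binding role was lower, at -1.29. Its subunits are the catalytic POLA1, the accessory POLA2, the primase PRIM1, which makes the RNA primer, and PRIM2, the primase regulatory subunit. The gene values of POLA1, POLA2, PRIM1 and PRIM2 were -1.28, -1.06, -0.89 and -1.35. PRIM1 at -0.89 and POLA2 at -1.06 lie just outside and just inside the 2-fold mark. Of the 16 sgRNAs, 13 lay under 0, 10 were at -1 or less and 0 were at 1 or more. These are 81.25%, 62.5% and 0%, against 50.3%, 17.9% and 19.5% of targeting sgRNAs. Of the 16, 8 had under 30 normalized counts with DMSO, a level at which genes passed the mark more often. The 4 genes summed to 251 counts with HQ461 and 603 with DMSO, a normalized ratio of 0.600 (0.516 to 0.696). This was the lowest ratio of the 10 roles.

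PRIM2 (chromosome 6, 57314805 to 57646850 on GRCh38) had 1, 16, 21 and 2 counts with HQ461, against 25, 53, 90 and 8 with DMSO. Its 4 sgRNAs lay between -3.31 and -1.16, and no other replication gene had all of its sgRNAs at -1 or less. PRIM2 also stayed at -1 or less under all 11 other ways of processing that were tried, from -2.01 to -1.17, the only one of the 13 genes to do so. POLA1, on the X chromosome, had 1, 9, 15 and 48 counts with HQ461, against 16, 44, 41 and 52 with DMSO. Its last sgRNA, at 0.40, was the 1 above 0. PRIM1 had 60, 0, 8 and 13 counts with HQ461, against 83, 43, 35 and 23 with DMSO. So 1 sgRNA stayed near its level, while another was 9.95-fold lower with its 0 set at 3 counts. A count of 0 allows a level of 3, but this fold takes the DMSO count as exact. It is therefore not a strict limit, and the same holds for the folds from a 0 below. POLA2 had 0, 0, 8 and 49 counts with HQ461, against 1, 23, 29 and 37 with DMSO. The sgRNA with 23 counts with DMSO was 5.32-fold lower with its 0 set at 3 counts, and the last was higher, at 0.91. With sgRNAs under 30 normalized counts with DMSO left out, only that last sgRNA of POLA2 was used, and the value turned to 0.91.

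**Figure D5:**
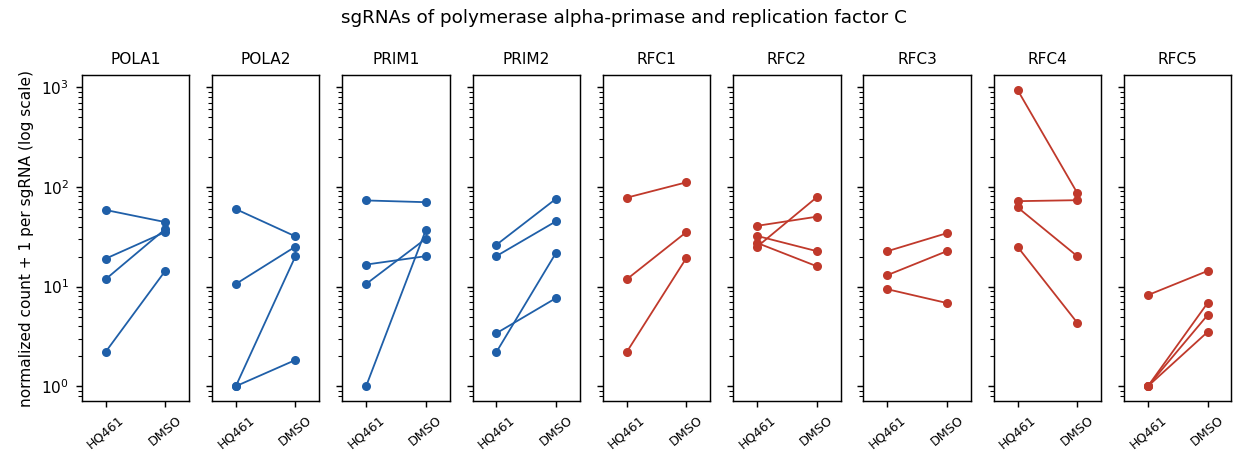
Normalized count plus 1 (vertical axis, log scale) of each sgRNA with HQ461 (left) and DMSO (right) in each panel, for the 4 polymerase alpha-primase genes (blue) and the 5 replication factor C genes (red); a line joins the 2 values of an sgRNA. The sgRNAs of PRIM2, RFC1 and RFC5 are all lower with HQ461, and 3 of the 4 RFC4 sgRNAs are higher.

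The clamp and its loader held both extremes of the 46 genes. PCNA is the ring that tethers polymerases to DNA, and replication factor C (RFC1 to RFC5) opens and loads it. RFC4 (chromosome 3, 186789880 to 186807058) had 59, 20, 51 and 779 counts with HQ461, against 87, 4, 23 and 103 with DMSO. Of its sgRNAs, 3 were higher with HQ461, at 1.63, 2.53 and 3.43, and the other was at -0.03. Its gene value of 2.08 stayed past the mark under all 11 alternatives (1.44 to 2.59). When its most raised sgRNA was left out, the value was 1.63.

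RFC5 and RFC1 lay at the other end, with gene values of -2.09 and -1.57. RFC5 (chromosome 12, 118013588 to 118033130) had 6, 0, 0 and 0 counts with HQ461, against 16, 5, 3 and 7 with DMSO. With so few reads its fold is poorly fixed. The sgRNAs with 5 and 7 counts with DMSO were 1.16-fold and 1.62-fold lower with their 0 set at 3 counts. DMSO counts that small are themselves uncertain, so a fall is not established for either sgRNA. The gene value was -0.45 when counts under 3 were set to 3 in both columns. The 3 counted sgRNAs of RFC1, the large subunit, had 64, 9 and 1 counts with HQ461, against 132, 41 and 22 with DMSO, all of them lower on the normalized scale. RFC3 and RFC2 had gene values of -0.60 and 0.10. PCNA was nearly absent from both columns, with 16 counts over 4 sgRNAs with HQ461 and 26 with DMSO, a normalized ratio of 0.887 (0.444 to 1.72), an interval that reaches past a 2-fold fall and holds 1. Because of RFC4, the summed counts of this role had the highest ratio of all roles, 2.23 (2.03 to 2.45), while its median gene value was -0.37.

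The single-strand binding protein RPA, which coats unwound DNA, has the subunits RPA1, RPA2 and RPA3. RPA2 had 17, 3, 20 and 56 counts with HQ461, against 77, 25, 93 and 18 with DMSO. Of these sgRNAs, 3 lay between -2.25 and -1.61, and the last was at 2.09, so that the gene value was -1.63. RPA3, with 0, 4 and 139 counts over its counted sgRNAs with HQ461 against 6, 9 and 61 with DMSO, had a gene value of -0.55, the highest of the 3. With sgRNAs under 30 normalized counts with DMSO left out, RPA3 kept 1 sgRNA and had 1.70. RPA1, on chromosome 17, had 8, 38, 83 and 7 counts with HQ461, against 8, 136, 119 and 53 with DMSO, and a gene value of -0.64.

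In the helicase core, MCM3 was past the mark and the other subunits were spread on both sides of 0. The MCM proteins form the ring that unwinds DNA, and MCM3 is 1 of its 6 subunits. MCM3 had 3, 7, 2 and 4 counts with HQ461, against 29, 9, 30 and 9 with DMSO, and a gene value of -1.50. The fall was carried by the sgRNAs with about 30 counts, at -2.45 and -2.93, and without the lower of them the gene value was -0.55. MCM5 followed at -0.84, with all 4 sgRNAs between -1.51 and -0.66, and its summed counts had a ratio of 0.544 (0.445 to 0.661). MCM4 was at -0.54, MCM6 at -0.09 and MCM7 at 0.30. MCM2, the highest, had 106, 150, 93 and 47 counts with HQ461, against 84, 178, 211 and 26 with DMSO, for a gene value of 0.57 that turned to -0.12 when scaled by total counts. A single MCM7 sgRNA with 191 counts with HQ461 and 16 with DMSO set the ratio of summed MCM7 counts at 6.29 (4.60 to 8.77), whereas the other MCM7 sgRNAs had 19 and 4 counts with HQ461 against 22 and 11 with DMSO.

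Origin recognition genes were split. ORC5 (chromosome 7, 104126341 to 104208047), an ATP-binding subunit of the complex that marks origins, had 0, 12, 16 and 146 counts with HQ461, against 15, 138, 13 and 362 with DMSO. Its gene value was -1.85, the second lowest of the 46, and its first sgRNA was 3.47-fold lower with its 0 set at 3 counts. ORC4 had 23, 469, 11 and 14 counts with HQ461, against 58, 278, 45 and 57 with DMSO. Its gene value was -1.11, while the ratio of its summed normalized counts was 1.70 (1.49 to 1.94), because 1 sgRNA held 469 of its 517 counts with HQ461. ORC1 and ORC2 had gene values of -0.50 and -0.51, and ORC6 was at 0.22. The ORC1 sgRNAs all lay under 0, with a ratio of summed counts of 0.540 (0.417 to 0.694). ORC3 showed the widest disagreement of the 46 genes, with 60, 7, 96 and 8 counts with HQ461 against 13, 53, 4 and 31 with DMSO. Its sgRNAs ran from -2.26 to 4.75, and its gene value of 0.64 describes none of them.

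Of the loading factors, CDT1 was lower and CDC6 and geminin stayed near 0. CDT1 brings the helicase to origins and is itself destroyed in S phase through the CUL4-DDB1 ligase with the receptor CDT2, while geminin (GMNN) binds and blocks CDT1. CDT1 (chromosome 16, 88803789 to 88809258) had 238, 74, 10 and 67 counts with HQ461, against 297, 235, 53 and 199 with DMSO. Of its sgRNAs, 3 lay between -1.80 and -1.03 and the first was at 0.21, for a gene value of -1.08. It was the best counted of the 13 genes, with a median of 181 normalized counts with DMSO. The value was -0.94 as a mean over sgRNAs and -0.48 as a ratio of sums. GMNN had 21, 31, 48 and 20 counts with HQ461, against 34, 32, 71 and 17 with DMSO, and a gene value of 0.21 (-0.46 when scaled by total counts). CDC6, on chromosome 17, had 118, 26, 32 and 206 counts with HQ461, against 157, 43, 52 and 240 with DMSO, and a gene value of -0.03. Its sgRNAs stayed within 0.50 of each other, the narrowest range of the replication genes with 4 sgRNAs.

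Genes of helicase activation lay between -0.75 and 0.23, except GINS3. MCM10, which helps start unwinding, was at -0.75, CDC45 at -0.51 and the kinase subunit DBF4 at -0.32. GINS4, GINS1 and GINS2 had values of -0.08, -0.01 and 0.06. GINS3, a subunit of the same 4-protein complex, had 118, 29, 2 and 1 counts with HQ461, against 113, 74, 24 and 9 with DMSO. Its gene value was -1.38, but its sgRNAs of most counts were at 0.58 and -0.81, and the ratio of its sums was 0.982 (0.793 to 1.21). The kinase CDC7 had 16 and 5 counts over its counted sgRNAs with HQ461, against 3 and 34 with DMSO. These opposite values, 2.53 and -2.07, gave the highest gene value of the role, 0.23, on too few sgRNAs to place the gene.

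Among the 46 genes, the subunits of polymerase delta lay on both sides of 0, and the polymerase epsilon subunits POLE and POLE2 lay under 0. Polymerase delta synthesizes mainly the lagging strand and polymerase epsilon the leading strand. POLD2, an accessory subunit of polymerase delta, had 18, 2 and 5 counts over its counted sgRNAs with HQ461, against 25, 10 and 24 with DMSO, and a gene value of -1.46. POLD1, the catalytic subunit of polymerase delta, had 23, 46, 19 and 3 counts with HQ461, against 10, 55, 18 and 1 with DMSO, and a gene value of 0.95 that stayed above 0 under every scaling (0.41 by total counts). POLD3 had 76, 221, 62 and 5 counts with HQ461, against 83, 65, 69 and 26 with DMSO, and a gene value of 0.38 (-0.30 by total counts). Of polymerase epsilon, the catalytic POLE was at -0.86 and POLE2 at -0.65. The 4 POLE2 sgRNAs all lay under 0, between -1.21 and -0.17, with a ratio of sums of 0.522 (0.426 to 0.636). POLE had sgRNAs with 0, 1 and 1 counts with HQ461, and its value became 0.31 when counts under 3 were set to 3. Its sgRNAs with 0 counts with HQ461 against 3 with DMSO, and with 1 against 0, then had 3 in both columns. The size factors place such an sgRNA above 0, so the sign of this value comes from the setting.

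Lagging-strand maturation was the 1 role whose genes both lay above 0, and both turned below 0 when scaled by total counts. FEN1 cuts the displaced flap and LIG1 seals the nick. LIG1 had 119, 90, 57 and 115 counts with HQ461, against 134, 95, 99 and 70 with DMSO, and a gene value of 0.40 (-0.28 by total counts). The counted FEN1 sgRNAs had 3, 31 and 43 counts with HQ461, against 4, 1 and 42 with DMSO, and a gene value of 0.55 (-0.12 by total counts). LIG1 was among the better counted of the 46 genes, with a median over its sgRNAs of 80.8 normalized counts with DMSO, where the median of the 46 genes was 34.8.

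Among the fork factors, TIMELESS, which with its partner TIPIN stabilizes moving forks, had 30, 1, 0 and 13 counts with HQ461, against 58, 12, 4 and 13 with DMSO. Its sgRNAs with 12 and 4 counts with DMSO were at -2.32 and -2.12 and the others at -0.41 and 0.49. The gene value was -1.26, and it was -0.16 when counts under 3 were set to 3. Claspin (CLSPN), the mediator between the kinases ATR and CHEK1, was at -0.27. WDHD1, which links polymerase alpha to the helicase, had 128, 19, 14 and 3 counts with HQ461, against 115, 17, 39 and 15 with DMSO, and a gene value of -0.13. In both WDHD1 and CLSPN the sgRNAs lay on both sides of 0.

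The interval of the ratio of summed counts lay wholly under 1 for 17 of the 46 genes, against a background of 26.9% of all genes. It lay wholly above 1 for 11, against 52.7% of all genes, and held 1 for 18. These intervals hold no spread between cultures or between the sgRNAs of a gene. Their width grows as reads become fewer, so scarcer genes hold 1 more easily. In the DMSO column the median gene level was 34.8 normalized in the replication set and 130 over the whole screen. The median gene of the screen also sat above a ratio of 1, at a log2 value of 0.22. The 26.9% and 52.7% are therefore not a like-for-like background for the replication genes.

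Genes on chromosome 17 and on 11q, the long arm of chromosome 11, had raised values in this screen, and 5 replication genes lie there. The median over the other genes was 0.97 on chromosome 17 and 0.43 on 11q. CDC6 (chromosome 17, 40287879 to 40304657), at -0.03, lay among 108 genes within 2 Mb whose median was 1.48, and RPA1 (1829702 to 1900082), at -0.64, among 65 with a median of 0.55. On chromosome 11, FEN1 (61792911 to 61797238) lay at 0.55 among 102 genes with a median of 1.07, POLA2 (65261913 to 65305959) at -1.06 among 140 with 0.63, and POLD3 (74493851 to 74669117) at 0.38 among 45 with 0.28. So 4 of the 5 lay below the median of their neighbours, all but POLD3. Without these regions the remaining 41 genes had a median of -0.51, where all genes had -0.08, and 12 were at -1 or less (29.3%, against 8.30% of all genes off these regions).

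Further genes of replication, chosen for their known roles, had values near those of all genes. This list of 41 holds checkpoint kinases, helicases, accessory polymerase subunits and enzymes of nucleotide supply. Their median was 0.09, with 4 at -1 or less (9.76%) and 3 at 1 or more (7.32%), beside backgrounds of 7.69% and 9.01%. Those at -1 or less were DNA2 (-1.80), a nuclease and helicase of flap processing, the polymerase epsilon subunit POLE3 (-1.35), the checkpoint kinase CHEK1 (-1.34) and the clamp-loader subunit DSCC1 (-1.23). DNA2 had 4 counts with HQ461 and 57 with DMSO over its 4 sgRNAs, and CHEK1 had 15 with HQ461 and 78 with DMSO over its 3 counted sgRNAs. DSCC1 had 345 counts with HQ461 and 332 with DMSO, so its sum does not share the direction of its median. Those at 1 or more were KAT7 (2.66), on chromosome 17, MTBP (2.17) on 2 counted sgRNAs, and the S-phase kinase CDK2 (1.09). ATR, the kinase upstream of CHEK1, was at -0.90. The large subunit of ribonucleotide reductase, RRM1, with 16 counts with HQ461 and 30 with DMSO, and the topoisomerase TOP2A, with 19 with HQ461 and 32 with DMSO, were about as scarce as PCNA and had values of 0.47 and 0.10. The median of this list with DMSO was 57.5 normalized counts per gene, against 34.8 for the 46 replication genes, so the lists were not measured at the same level.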

How the data were processed

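Genomic DNA of A549 cells was sequenced for sgRNAs by the authors, who counted reads per sgRNA with MAGeCK 0.5.9.2 and deposited the read counts without normalization. The labels name 4 libraries and the table has 2 columns. How the replicates became 1 column is not stated in the labels or methods. The 46 genes and all lists were chosen with earlier results of these data known. A total of 273 sgRNAs without reads were left out, median-ratio size factors were applied and 1 was added before log2 (Python 3.11.15, numpy 2.4.6, pandas 2.3.3, scipy 1.17.1, matplotlib 3.10.9). The calculation was tested on simulated data that held counting error only. Genes with a DMSO median under 30 normalized counts were not scored there, so the test does not cover the scarcer replication genes. Ratios of sums have exact conditional binomial intervals and shares have Clopper-Pearson intervals. Every gene of the 46 is named, and counts of each sgRNA are given for genes past the 2-fold mark, the lowest and highest of each role and those on chromosome 17 or 11q. Positions came from GENCODE 44 on GRCh38, the build in the submitters' processing notes, with 17761 genes placed by symbol, 955 through an older symbol in RefSeq and 395 not placed. Alternatives were other scalings (TMM from edgeR 4.0.16), a pseudocount of 5, a minimum count, other summaries over sgRNAs and removal of raised regions. The sgRNA sequences were not analysed here.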

Additional observations from a re-analysis of the deposited data

How the results depend on the processing

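The median of the 46 genes lay under 0 and under the median of all genes in all 11 alternatives, with counts of genes at -1 or less from 4 to 25. By total counts, which moved the median of all genes by -0.68, it was -1.12, with 25 genes at -1 or less against 32.1% of all genes. Without the most raised sgRNA of each gene the median was -0.89 with 21 genes at -1 or less, against 17.4% of all genes. Without the most lowered sgRNA it was -0.028, with 5 at -1 or less against 3.85% of all genes and 6 at 1 or more against 18.2%. As a log2 ratio of summed counts it was -0.17, with 4 genes at -1 or less (8.70%, against 3.68% of all genes) and 6 at 1 or more, against 18.1%. A pseudocount of 5 gave -0.33 and 7 genes at -1 or less, against 5.81% of all genes. A minimum of 30 normalized counts with DMSO tested 40 genes and gave -0.29, with 9 genes at -1 or less against 8.06% of all genes, and 2 at 1 or more against 8.92%. This minimum selects sgRNAs on the denominator of the fold, so it is not neutral between falls and rises. Of the 9 genes, 3 were not at -1 or less without it, namely ORC3 (-2.26), PRIM1 (-2.57) and RPA1 (-1.29). Setting counts under 3 to 3, chosen after the data had been seen, gave -0.30, with 9 genes at -1 or less against 7.19% of all genes. In this setting 1 was not added before log2, and an sgRNA at 3 in both columns lies above 0 after scaling. The median was -0.54 by TMM and -0.47 by non-targeting controls, and the mean over sgRNAs gave -0.50, with 10 genes at -1 or less against 7.13% of all genes and 3 at 1 or more against 10.2%. Of single genes past the mark, ORC4 turned to 0.76 as a ratio of sums and POLA2 to 0.91 with the minimum count, where 1 sgRNA was left. Of the 13 genes, 9 were also at -1 or less with counts under 3 set to 3, 6 with the minimum count and 4 as a ratio of sums. The median level of replication sgRNAs with DMSO was 2.74 CPM, against 10.5 CPM for targeting sgRNAs. The cause of these changes was not tested beyond what each setting removes. No paired analysis was possible because each treatment has a single column, and for the same reason replicates could not be left out in turn. With 84 of 176 replication sgRNAs under 30 normalized counts with DMSO, counting depth limits the falls that can be measured.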

Other observations

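Genes of the G1/S switch, which commit cells to replication, were set beside the replication genes. The 17 genes had a median of 0.18. Only SKP2, an F-box receptor, was at -1 or less, at -1.08 (5.88%, against 7.69% of all genes). The kinase CDK2, also in the list of further replication genes, alone was at 1 or more, at 1.09 (5.88%, against 9.01%). The median gene level with DMSO was 137 normalized counts for this list and 34.8 for the 46 replication genes. The lists were therefore not measured at the same level. Summed counts of SKP2 were 124 with HQ461 and 282 with DMSO, and those of CDK2 were 595 with HQ461 and 270 with DMSO. Scaled by total counts every gene value is lower, so directions here are relative to the median sgRNA. The difference between the lists was not tested.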
